A study of Homo sapiens with 42 samples.

Results

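The oxygen-dependent histone demethylases described here are 10 genes of the KDM2, KDM3, KDM4, KDM5 and KDM6 families. They were chosen by gene symbol, and each symbol matched 1 row, so that 10 of the 60609 gene rows of the count tables are members. Poly-A RNA-seq was performed in 2 batches on 786-O cells, a human clear cell renal cell carcinoma line that lacks functional VHL, the protein that targets HIF-α for degradation, and that carries a truncated HIF-1α. Each of the 42 libraries belongs to 1 of 14 groups of 3 libraries, which the study's methods call biological replicates, with 9 groups in batch 1 and 5 in batch 2. The comparisons ask which of these genes differ when HIF-1α, HIF-2α, an inactive mutant or a chimera of both is added to cells that already hold stabilised HIF-2α.

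Batch 1 held WT cells, 2 knock-in (KIN) lines and 6 lines with an added HIF-α, and batch 2 held a new set of WT cells and 4 lines with an added HIF-α. In the KIN lines, made for HIF-1β and for HIF-2α, both endogenous copies of the gene carry V5 and Halo tags at the N-terminus, and each line is 1 clone. The other lines carry a V5-Halo-tagged transgene driven by the L30 promoter, inserted by PiggyBac transposition and selected with puromycin, and no cloning step is described for them. Their expression is stated to vary from cell to cell. The transgene is wild-type HIF-1α or HIF-2α in both batches. In batch 1 it is also a DNA-binding mutant (HIF-1α R30E, HIF-2α R27E) or a dimerization mutant, HIF-1αDM with R170A and V191D and HIF-2αDM with R171A and V192D. One label field of the HIF-2αDM samples names HIF-1α, whereas the title and description name HIF-2α, which was followed. In batch 2 the HIF-2α/1α chimera joins residues 1 to 365 of HIF-2α, the structured N-terminal part with the DNA-binding and dimerization domains, to residues 364 to 826 of HIF-1α, the intrinsically disordered region (IDR). The HIF-1α/2α chimera joins residues 1 to 363 of HIF-1α to residues 366 to 870 of HIF-2α. No treatment other than the puromycin selection of the transgene lines is described for these cells, and all groups share the VHL-deficient background. Each transgene line against WT therefore also sets transfected and selected cells beside WT cells that were neither. Batch 2 held no inactive mutant or empty-vector line. A change there shared by all 4 lines and a change due to transfection or selection cannot be told apart.

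These enzymes remove methyl groups from lysines of histone H3 through a JmjC domain, which uses molecular oxygen, 2-oxoglutarate and iron as HIF prolyl hydroxylases do. Demethylation is therefore coupled to oxygen and to central metabolism. Several of the genes are also known HIF targets in other cells, so that cells short of oxygen make more of an enzyme that needs it. KDM3A and KDM3B act on methylated H3K9, a mark of silent chromatin. KDM4A, KDM4B and KDM4C act on trimethylated H3K9 and H3K36, KDM2A and KDM2B mainly on H3K36, KDM5A and KDM5B on H3K4, a mark of active promoters, and KDM6B on the Polycomb mark H3K27.

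The start regions of 4 members are shown. They are windows of KDM3A and KDM4B, which changed by the most across the lines, and of the other members that hold ACGTG. These letters are part of the hypoxia response element TACGTG named by the study. Only ACGTG and TACGTG were searched, and other forms of the element were not. The windows come from RefSeq (GRCh38.p14) and run from 250 bases before the start site to 20 after it, read 5′ to 3′ on the gene's strand. KDM3A is shown for chr2:86441121-86441390 on the plus strand, KDM4B for chr19:4968863-4969132 on the plus strand, KDM4C for chr9:6757723-6757992 on the plus strand and KDM2B for chr12:121581004-121581273 on the minus strand. Capitals mark each run that holds ACGTG on either strand (CACGT on the other), and a CACGTG holds it on both strands and was counted once.
KDM3A: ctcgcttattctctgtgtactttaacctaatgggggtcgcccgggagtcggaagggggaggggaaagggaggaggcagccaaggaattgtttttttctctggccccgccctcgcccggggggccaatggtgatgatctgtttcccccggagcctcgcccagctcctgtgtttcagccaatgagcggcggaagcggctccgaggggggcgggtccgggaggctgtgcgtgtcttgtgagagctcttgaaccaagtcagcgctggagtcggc
KDM4B: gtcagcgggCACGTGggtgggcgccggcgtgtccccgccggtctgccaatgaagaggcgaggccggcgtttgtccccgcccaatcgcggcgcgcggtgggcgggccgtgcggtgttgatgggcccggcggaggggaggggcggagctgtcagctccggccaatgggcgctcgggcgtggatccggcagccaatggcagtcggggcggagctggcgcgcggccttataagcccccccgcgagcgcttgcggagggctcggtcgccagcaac
KDM4C: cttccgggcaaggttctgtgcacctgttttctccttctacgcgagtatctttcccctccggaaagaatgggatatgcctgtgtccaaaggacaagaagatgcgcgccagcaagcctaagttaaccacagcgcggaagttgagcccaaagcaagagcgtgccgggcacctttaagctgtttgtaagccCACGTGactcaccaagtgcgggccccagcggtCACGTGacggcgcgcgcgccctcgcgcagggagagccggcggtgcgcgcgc
KDM2B: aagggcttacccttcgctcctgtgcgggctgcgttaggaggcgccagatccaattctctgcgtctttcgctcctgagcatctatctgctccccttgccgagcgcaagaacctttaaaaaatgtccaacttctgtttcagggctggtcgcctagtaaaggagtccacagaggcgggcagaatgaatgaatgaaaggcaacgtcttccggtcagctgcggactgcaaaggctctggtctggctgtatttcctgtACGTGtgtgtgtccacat
The search covered 300 bases, 250 before and 50 after the start. KDM4B held 1 site, at -241, KDM4C held 2, at -63 and -31, and the first of 4 KDM2B windows held 1, at 2 bases after the start, where the longer TACGTG also matches. Neither KDM3A window and no window of the remaining 6 members held ACGTG. Of 35116 RefSeq windows of this length, 7518 (21.4%) held the motif and 1139 (3.24%) held TACGTG. A match describes the letters of a window and does not locate HIF binding, and a window without a match says only that these letters are not in it.

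In the GENCODE 44 annotation of hg38, KDM3A spans chr2:86440647-86492716 and KDM4B chr19:4969113-5153598, both on the plus strand and with no other gene overlapping them. KDM6B (chr17:7834217-7854796, plus strand), KDM5B (chr1:202724495-202808487, minus strand) and KDM3B (chr5:138352685-138437028, plus strand) share no exon bases with another gene. The antisense RNA KDM4A-AS1 shares 473 exon bases with KDM4A (chr1:43650149-43705518), and RNF34 and KDM2B-DT share 439 and 232 with KDM2B (chr12:121429096-121581023). KDM5A (chr12:280057-389320) shares 48 exon bases with CCDC77, and KDM2A (chr11:67119263-67258082) and KDM4C (chr9:6720863-7175648) share 679 and 135 with unnamed non-coding RNAs. The authors counted reads without regard to strand, so reads in those stretches cannot be assigned, and KDM4A also shares 2086 exon bases with a second gene model on its own strand, which had 0 counts in every library.

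All 10 genes were expressed in every library, with raw counts from 310 (KDM4C) to 15650 (KDM4B). Per length of exon, WT cells of batch 2 held most KDM3B and KDM2A, at 12.9 ± 0.384 and 9.37 ± 0.159 RPKM (SD, n = 3), followed by KDM4A at 4.70 ± 0.134 and KDM5A at 4.60 ± 0.0538. KDM2B and KDM4B stood at 3.24 ± 0.0902 and 3.11 ± 0.124 RPKM, and KDM3A at 2.14 ± 0.0421, KDM6B at 1.84 ± 0.0288, KDM5B at 1.38 ± 0.0551 and KDM4C at 1.32 ± 0.0526 closed the order. The libraries of KDM4A and KDM5A, of KDM2B and KDM4B, and of KDM5B and KDM4C overlapped, and the other neighbours in this order did not. In WT cells of batch 1, KDM2A (9.27 ± 1.27 RPKM) and KDM3B (9.04 ± 0.345) overlapped at the top, and KDM2B (6.01 ± 0.707), KDM4B (5.86 ± 1.42), KDM4A (4.40 ± 0.138) and KDM6B (3.83 ± 0.904) formed a run of overlapping neighbours. KDM5A (1.54 ± 0.0700), KDM3A (1.14 ± 0.0668), KDM4C (0.767 ± 0.102) and KDM5B (0.554 ± 0.0267) followed without overlap. Both orders depend on the length used, the union of all GENCODE 44 exons, whereas the methods name an older annotation for counting. This union is 24899 bases for KDM5B and 5184 for KDM4A. Without division by length, KDM5B stood above KDM4A in batch 2 WT, at 34.3 against 24.4 CPM (counts scaled to library size). In batch 1 WT it stayed below, at 13.8 against 22.8 CPM. RNA extraction and library kits differed between the batches, so levels were never compared across them, and each line was compared with WT or other lines of its own batch. A joint model also compared the changes against WT between batches.

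Library totals were 42377599 to 101186554 counts in batch 1 and 76366799 to 109642159 in batch 2. The renal markers PAX8, PAX2, KRT8, KRT18, VIM and CDH2 were detected in each library (PAX8 at 208 to 551 CPM, counts scaled to the TMM-normalised library size), and PTPRC, PECAM1, ALB, CD3E and DES stayed at or below 0.173 CPM. HIF1A, the gene of HIF-1α, was at 3.60 ± 0.201 CPM in batch 1 WT and 33.5 to 45.2 CPM on average in the 3 lines carrying HIF-1α or its mutants, and EPAS1, the gene of HIF-2α, at 215.9 ± 30.1 CPM in WT and 665.5 to 843.9 CPM in the 3 HIF-2α lines. In batch 2, HIF1A rose from 3.27 ± 0.313 CPM in WT to 147 CPM in the HIF-1α line, 107.5 CPM in the HIF-2α/1α chimera and 108.7 CPM in the HIF-1α/2α chimera. EPAS1 there rose from 140.9 ± 9.16 CPM to 475.1 CPM in the HIF-2α line and 574.4 CPM in the HIF-1α/2α line. HIF1A was also above WT in the HIF-2α lines, at 13.5 ± 4.17 CPM in batch 1 and 10.4 ± 1.61 CPM in batch 2 (adjusted p = 1.37e-06 and 4.25e-21). EPAS1 was likewise above WT with HIF-1α, at 341.7 ± 38.97 CPM in batch 1, which did not pass (adjusted p = 0.035), and at 182.7 ± 12.7 CPM in batch 2 (adjusted p = 6.29e-07). With HIF-2α/1α it was at 231.7 ± 14.1 CPM (adjusted p = 2.96e-14). Reads of a transgene and of the endogenous gene were counted together, so a chimera can add to both genes. Of HIF1A and EPAS1, 1 was called higher (at least 2-fold) for HIF-1α over R30E and 1 over HIF-1αDM. The HIF1A means of these lines lay closer than 2-fold, so that gene was EPAS1. Likewise 1 was called higher for HIF-2α over R27E and 1 over HIF-2αDM, and by the EPAS1 means that gene was HIF1A.

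A gene was called where edgeR gave a Benjamini-Hochberg adjusted p of at most 0.01 over all genes tested and a change of at least 2-fold, the thresholds of the study, and a second rule took the adjusted p alone. In batch 2, 7 of the 10 members passed the second rule upward with HIF-1α (9.31% of the 28724 genes tested did so) and 0 downward (7.87%, with 3 members lower at an unadjusted p under 0.05 and 2 passing with DESeq2). KDM3A and KDM4B were called higher (3.90% of all genes) and no member lower (0.484%). With HIF-2α/1α, 5 passed upward (8.76% of all genes) and 1 downward (7.91%), with KDM4B called higher (2.98%) and no member lower (0.508%). With HIF-2α, 3 passed upward (13.4%) and 1 downward (14.0%), and with HIF-1α/2α 3 upward (13.7%) and 2 downward (14.1%). Neither of these lines had a called member (5.45% and 5.10% of genes were called higher, 2.13% and 2.68% lower). The median log2 change over the 10 members was 0.44, 0.20, 0.01 and -0.09 in this order, beside 0.03, 0.03, 0.07 and 0.08 over all genes tested. The 4 comparisons share the WT libraries. In bulk RNA, a change in how many cells respond and a change of RNA per cell cannot be told apart.

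**Figure D1:**
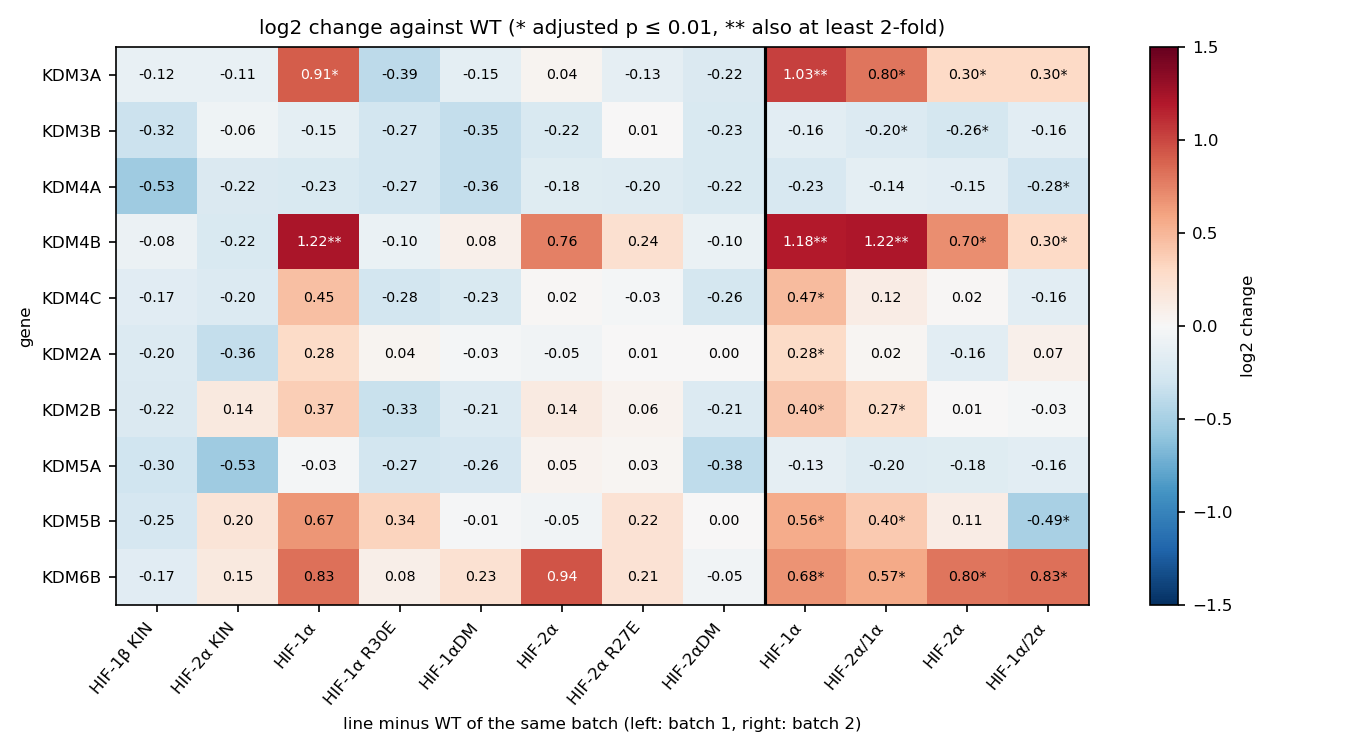
Log2 change of each member (rows) in each of 12 lines minus WT of its own batch (columns, batch 1 left of the black line and batch 2 right of it), coloured from blue for lower to red for higher, with 1 star for an adjusted p of at most 0.01 and 2 where the change is also at least 2-fold. In it KDM3A and KDM4B reach 1.03 and 1.18 with HIF-1α in batch 2, while KDM3B, KDM4A and KDM5A lie between -0.53 and 0.05 in all 12 columns.

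Of the H3K9 demethylases of the KDM3 family, KDM3A rose in all 4 lines of batch 2 and KDM3B fell in 2. In batch 2, KDM3A stood at 27.9, 29.0 and 28.7 CPM in WT, at 59.0, 57.9 and 57.8 with HIF-1α and at 48.2, 53.6 and 46.8 with HIF-2α/1α. It stood at 34.8, 36.2 and 34.6 CPM in the HIF-2α line and at 35.6, 35.7 and 33.9 with HIF-1α/2α. The libraries thus fell into 3 levels without overlap, with WT lowest, both lines carrying the HIF-2α IDR next and both lines carrying the HIF-1α IDR highest. The log2 change was 1.03 ± 0.0618 (SE) with HIF-1α (adjusted p = 4.69e-18), 0.80 ± 0.0618 with HIF-2α/1α (adjusted p = 2.69e-14), 0.30 ± 0.0620 with HIF-2α (adjusted p = 8.25e-05) and 0.30 ± 0.0619 with HIF-1α/2α (adjusted p = 0.000111). KDM3B, its closest relative, stood at 99.4, 100.5 and 105.1 CPM in WT and at 82.5 to 94.9 CPM in all other libraries of the batch. It fell by 0.26 on the log2 scale with HIF-2α (adjusted p = 0.000126) and by 0.20 with HIF-2α/1α (adjusted p = 0.00406), and its changes of -0.16 with HIF-1α and -0.16 with HIF-1α/2α did not pass (adjusted p = 0.0272 and 0.0224, the second 0.00998 without HIF-1α/2α replicate 1). The fall with HIF-2α/1α no longer passed when any 1 of 4 libraries was left out, replicates 2 and 3 of HIF-2α/1α or of WT (adjusted p from 0.0116 to 0.0329).

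Within the KDM4 family, KDM4B rose in all 4 lines of batch 2, KDM4C in 1 and KDM4A in 0. KDM4B stood at 45.5, 44.2 and 47.8 CPM in WT, at 106.5, 106.7 and 99.3 with HIF-1α and at 112.8, 106.1 and 100.6 with HIF-2α/1α. It stood at 76.4, 76.5 and 70.7 CPM in the HIF-2α line and at 54.8, 59.97 and 54.2 with HIF-1α/2α. The lines with the HIF-1α IDR overlapped each other above all other libraries, and HIF-2α, HIF-1α/2α and WT followed as separate levels. Its log2 change was 1.18 ± 0.0593 with HIF-1α (adjusted p = 7.50e-21), 1.22 ± 0.0594 with HIF-2α/1α (adjusted p = 5.45e-21), 0.70 ± 0.0591 with HIF-2α (adjusted p = 1.14e-13) and 0.30 ± 0.0591 with HIF-1α/2α (adjusted p = 5.50e-05). KDM4C stood at 13.0, 13.8 and 14.0 CPM in WT and at 19.0, 20.5 and 17.3 with HIF-1α. That rise of 0.47 ± 0.0822 on the log2 scale passed (adjusted p = 1.12e-05). In the other lines KDM4C lay between 11.4 and 15.4 CPM, with log2 changes of 0.12 with HIF-2α/1α, 0.02 for HIF-2α and -0.16 for the chimera HIF-1α/2α that did not pass (adjusted p = 0.356, 0.930 and 0.142). KDM4A fell by 0.28 with HIF-1α/2α (adjusted p = 0.00115), from 23.7, 24.3 and 25.1 CPM in WT to 19.9, 21.2 and 19.0. Its change of -0.23 with HIF-1α did not pass (adjusted p = 0.0107) and passed without any 1 of 5 libraries of the chimera and HIF-2α lines (adjusted p from 0.00684 to 0.00962).

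The H3K36 demethylases KDM2A and KDM2B rose with HIF-1α, by 1.22-fold and 1.32-fold. KDM2A stood at 95.4, 98.5 and 97.9 CPM in WT and at 119.0, 120.5 and 115.8 with HIF-1α, and its rise of 0.28 ± 0.0527 on the log2 scale passed (adjusted p = 3.52e-05). It was at 103.7, 98.0 and 95.03 CPM with HIF-2α/1α, at 87.5, 88.8 and 85.3 with HIF-2α and at 101.0, 107.2 and 98.6 with HIF-1α/2α, and none of these 3 lines passed against WT (adjusted p = 0.815, 0.0168 and 0.321, the second 0.00897 without HIF-2α/1α replicate 3). KDM2B, which recruits a variant Polycomb complex to CpG islands, was at 43.2, 43.6 and 45.5 CPM in WT, at 60.2, 58.6 and 56.2 with HIF-1α and at 56.7, 53.6 and 49.7 with HIF-2α/1α. These rises were 0.40 ± 0.0612 (adjusted p = 1.02e-06) and 0.27 ± 0.0613 (adjusted p = 0.000567) on the log2 scale, and the second no longer passed without HIF-2α/1α replicate 1 (0.23, adjusted p = 0.0115). In the HIF-2α line and the HIF-1α/2α chimera, KDM2B lay between 41.2 and 45.8 CPM and overlapped WT.

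KDM5B was the member that moved in both directions. This H3K4 demethylase, known from breast cancer as PLU-1, stood at 33.8, 35.8 and 33.2 CPM in batch 2 WT, at 54.6, 51.9 and 45.0 with HIF-1α and at 48.2, 47.0 and 40.1 with HIF-2α/1α. It was at 38.1, 38.1 and 34.6 CPM with HIF-2α, overlapping WT, and at 25.6, 25.7 and 22.1 with HIF-1α/2α, below every WT library. The log2 change was 0.56 ± 0.0737 with HIF-1α (adjusted p = 5.04e-08), 0.40 ± 0.0738 with HIF-2α/1α (adjusted p = 4.27e-05), 0.11 ± 0.0740 with HIF-2α (adjusted p = 0.295) and -0.49 ± 0.0748 with HIF-1α/2α (adjusted p = 5.56e-07). Its paralog KDM5A stood at 54.6 to 55.9 CPM in WT and at 43.8 to 52.5 CPM in the 12 other libraries, all below WT. Its log2 changes of -0.13 to -0.20 did not pass in any line (adjusted p from 0.0196 to 0.136). Without HIF-1α/2α replicate 3 it passed with HIF-2α/1α and HIF-2α (adjusted p = 0.00665 and 0.00749). KDM5A lies on chromosome 12, whose 721 genes above a floor of 50 normalized counts on average had median log2 changes of -0.16 and -0.09 in the lines with the HIF-1α IDR (HIF-1α, then HIF-2α/1α) and of -0.175 and -0.21 in those with the HIF-2α IDR (HIF-2α, then HIF-1α/2α), beside -0.03 to -0.02 over all such genes. KDM5A itself was at -0.13, -0.20, -0.18 and -0.16 in the same order of lines, whereas KDM2B, on the same chromosome, was at 0.40, 0.27, 0.01 and -0.03. In the HIF-1α/2α line the 1357 such genes of chromosome 1, which holds KDM4A and KDM5B, had a median of -0.175. The part of these chromosome-wide shifts in the members' changes was not tested.

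KDM6B, the H3K27 demethylase also called JMJD3, rose in all 4 lines. It stood at 13.7, 13.3 and 13.7 CPM in WT, at 21.4, 22.0 and 21.8 with HIF-1α, at 20.8, 21.0 and 18.9 with HIF-2α/1α, at 22.9, 25.3 and 22.9 with HIF-2α and at 22.2, 22.6 and 27.5 with HIF-1α/2α. Every library with an added HIF-α exceeded every WT library. The log2 changes were 0.68 ± 0.0776, 0.57 ± 0.0778, 0.80 ± 0.0778 and 0.83 ± 0.0777 in the same order of lines (adjusted p = 1.63e-09, 1.14e-07, 7.24e-12 and 2.87e-12).

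**Figure D2:**
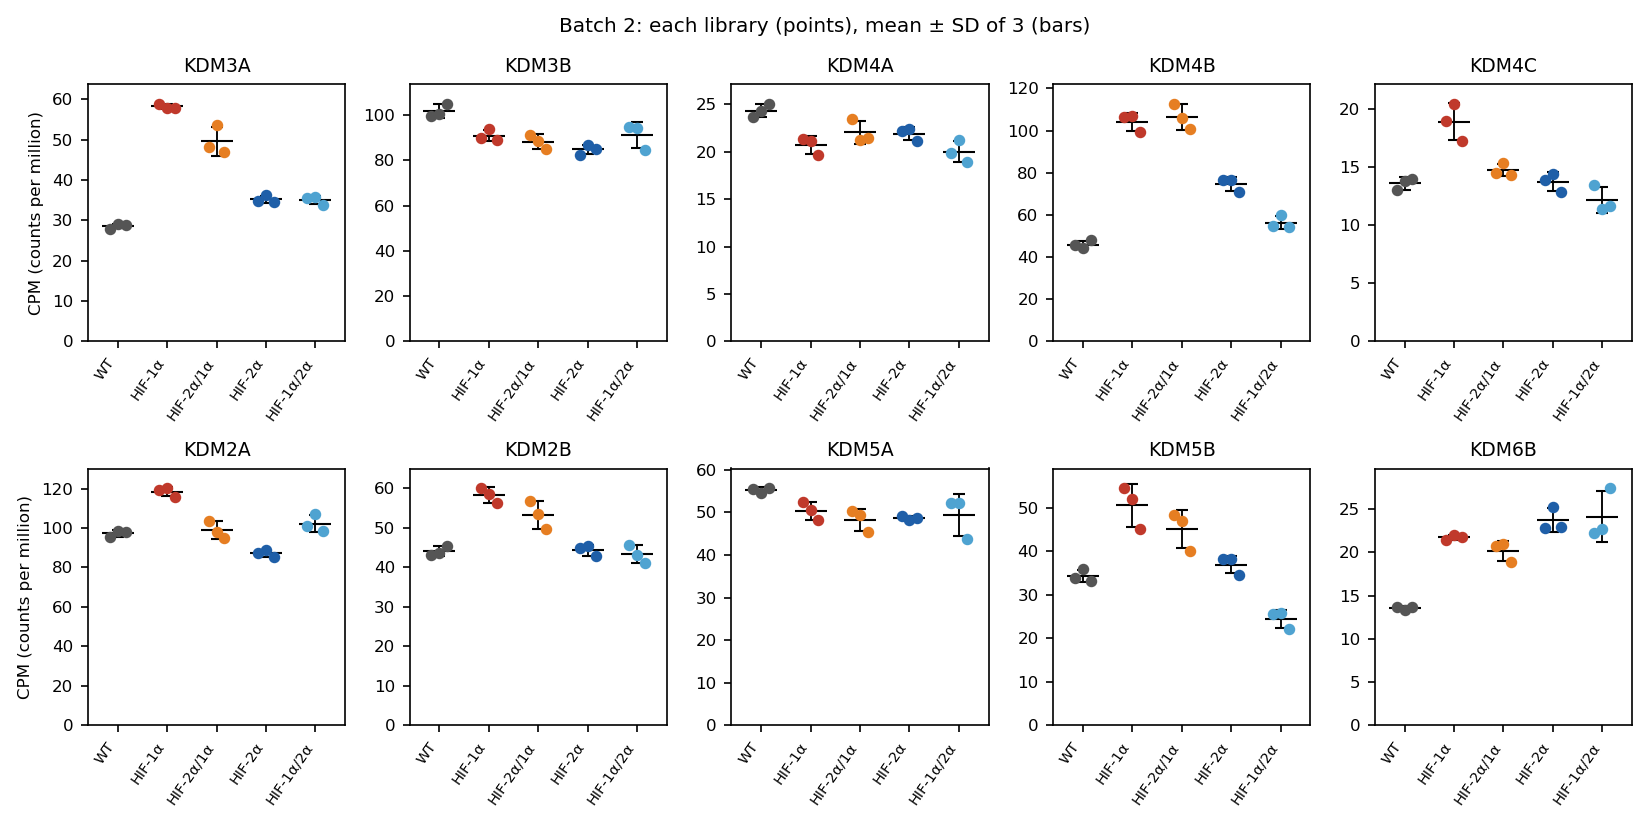
CPM of each of the 10 members (panels, y axis from 0) in the 3 libraries of each group of batch 2 (x axis), with points for libraries and bars for the mean ± SD. KDM3A and KDM4B are highest in both lines with the HIF-1α IDR (46.8 to 59.0 and 99.3 to 112.8 CPM), KDM6B is above its WT libraries in all 4 lines, and KDM5B falls below WT with HIF-1α/2α (22.1 to 25.7 CPM).

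The chimeras let the 4 lines be contrasted by the part of the protein that they carry. No second line of any construct is described, and HIF1A and EPAS1 RNA differed between the lines as given above. A difference due to a protein part and a difference between lines or transgene levels therefore cannot be told apart. The IDR effect is the mean of the lines with the HIF-2α IDR minus the mean of those with the HIF-1α IDR, and 6 members were lower with the HIF-2α IDR (13.4% of all genes passed in this direction) and 1 was higher (11.4%). The median over the members was -0.27, beside 0.02 over all genes. The log2 differences were -0.70 ± 0.0415 for KDM4B (adjusted p = 1.19e-18), -0.67 ± 0.0525 for KDM5B (adjusted p = 1.61e-14) and -0.61 ± 0.0435 for KDM3A (adjusted p = 5.51e-16). For each of these 3 genes, and for KDM2B, all 6 libraries with the HIF-2α IDR lay below all 6 with the HIF-1α IDR. The share of all genes that separate in this way was not computed, so this describes the libraries only. KDM4C (-0.37), KDM2B (-0.35) and KDM2A (-0.20) differed by less (adjusted p = 1.44e-06, 7.35e-09 and 3.18e-05). KDM6B went the other way, 0.19 ± 0.0541 higher with the HIF-2α IDR (adjusted p = 0.00483), and no longer passed when any 1 of 4 libraries was left out (0.14 without HIF-1α/2α replicate 3, adjusted p = 0.0371, and 0.16 to 0.18 without HIF-1α replicate 1, HIF-2α/1α replicate 3 or HIF-2α replicate 2, adjusted p from 0.0132 to 0.0304). KDM3B, KDM4A and KDM5A differed by -0.03, -0.03 and -0.01, with 95% intervals within -0.13 and 0.08.

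Fewer members passed between lines that differ in the structured part. With the HIF-2α structured part in place of that of HIF-1α, KDM4B was higher by 0.22 ± 0.0414 (adjusted p = 9.01e-05) and KDM5B by 0.22 ± 0.0524 (adjusted p = 0.00206), while KDM2A was lower by 0.24 (log2 difference -0.24 ± 0.0374, adjusted p = 2.07e-06). Over all genes 5.6% passed upward and 5.81% downward. KDM5B did not pass without HIF-1α replicate 3 (0.18, adjusted p = 0.0135) or HIF-2α/1α replicate 1 (0.19, adjusted p = 0.0120). For KDM3A the difference was -0.11, with a 95% interval from -0.20 to -0.03 (adjusted p = 0.0684). No member was called at 2-fold by edgeR or DESeq2 for the IDR (4.41% of genes called in either direction), the structured part (1.04%), their interaction (1.18%) or HIF-2α against HIF-1α (3.78%).

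The size of the IDR difference also differed between the structured parts for 3 members (3.01% of all genes passed upward in this interaction and 2.36% downward). Fitted log2 changes against WT put the exchange of the HIF-1α IDR for that of HIF-2α at -1.05 for KDM5B on the HIF-1α structured part and at -0.29 on that of HIF-2α. The interaction, the second exchange minus the first, was 0.76 ± 0.105 (adjusted p = 8.64e-07). KDM4C gave -0.64 and -0.10, an interaction of 0.53 ± 0.117 (adjusted p = 0.00142), and KDM4B -0.89 and -0.52, an interaction of 0.37 ± 0.0827 (adjusted p = 0.00158). For KDM3A the exchange gave -0.73 and -0.49, and its interaction of 0.24 did not pass (95% interval 0.06 to 0.41, adjusted p = 0.0792). The KDM4B and KDM4C interactions each crossed the threshold without 1 library (0.33, adjusted p = 0.0101 without HIF-2α/1α replicate 3, and 0.47, adjusted p = 0.0118 without HIF-1α replicate 2).

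**Figure D3:**
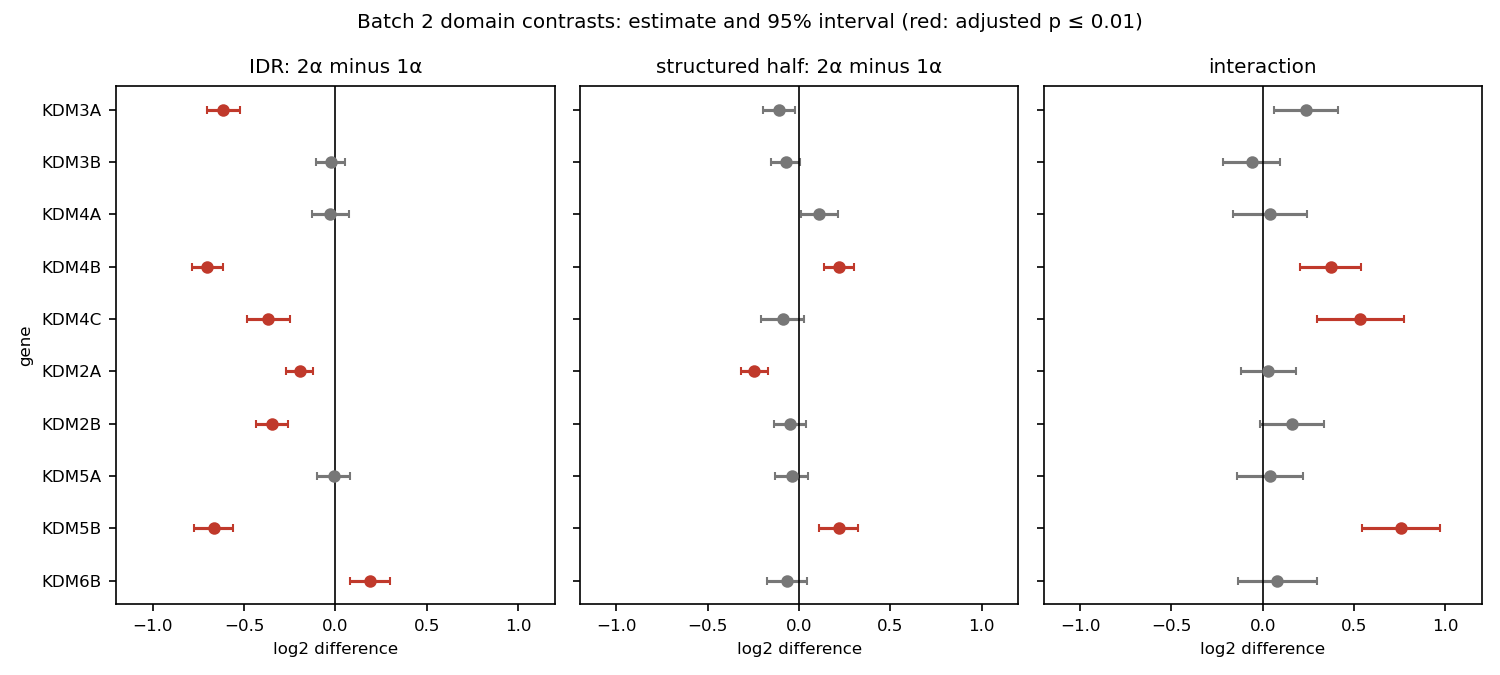
Log2 differences (x axis) of the 10 members (y axis) for the IDR exchange, the exchange of the structured part and their interaction in batch 2, with points for the estimate, bars for the 95% interval and red where the adjusted p is at most 0.01. KDM4B, KDM5B and KDM3A lie between -0.70 and -0.61 for the IDR, and no member differs by more than 0.24 for the structured part.

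Compared directly, the HIF-2α line had less of 6 members than the HIF-1α line in batch 2 (9.74% of all genes passed downward) and more of 0 (7.90% upward). In log2 terms the difference was -0.73 ± 0.0615 for KDM3A (adjusted p = 3.07e-13), -0.48 for KDM4B, -0.46 for KDM4C, -0.45 for KDM5B, -0.44 for KDM2A and -0.40 for KDM2B (adjusted p from 4.52e-09 to 2.00e-05). KDM6B did not pass, at 0.12 with a 95% interval from -0.03 to 0.28. The same comparison in batch 1 gave -0.87 ± 0.148 for KDM3A (adjusted p = 0.000266), the only member of 10 to pass (1.74% of genes passed downward and 1.33% upward), and -0.72 ± 0.189 for KDM5B (adjusted p = 0.02). In a model blocked on replicate number, KDM5B passed there too (adjusted p = 0.00363, with 3.28% of genes then passing downward).

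Batch 1 adds the inactive mutants and the tagged endogenous proteins. KDM3A stood at 14.5, 14.9 and 16.2 CPM in WT and at 28.4, 30.5 and 26.7 with HIF-1α, and the 24 libraries without wild-type HIF-1α all lay between 10.7 and 17.6 CPM. It was at 11.3, 12.8 and 10.7 CPM with HIF-1α R30E, at 13.0, 13.9 and 14.1 with HIF-1αDM and at 16.0, 16.1 and 14.7 with HIF-2α. The rise with HIF-1α was 0.91 ± 0.148 on the log2 scale against WT (adjusted p = 0.000117), 1.303 ± 0.150 against R30E (adjusted p = 1.18e-06) and 1.06 ± 0.149 against HIF-1αDM (adjusted p = 3.61e-05). Each of these passed without any 1 of the 27 libraries. The HIF-2α line gave 0.04 for KDM3A, with a 95% interval from -0.27 to 0.34.

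KDM4B varied more between libraries. It stood at 64.7, 87.4 and 106.5 CPM in WT, at 172.3, 218.6 and 212.2 with HIF-1α and at 123.4, 131.3 and 182.1 with HIF-2α. Both lines lay above every WT library. The rise with HIF-1α was 1.22 ± 0.284 against WT (adjusted p = 0.00542) and 1.32 ± 0.285 against R30E (61.2, 71.2 and 108.5 CPM, adjusted p = 0.00491), and 1.15 ± 0.284 against HIF-1αDM (70.5, 97.9 and 104.3 CPM) did not pass (adjusted p = 0.0216, and 0.00700 without R27E replicate 3). The call against WT was lost without WT replicate 1 (1.05, adjusted p = 0.0489), WT replicate 2 (1.23, adjusted p = 0.0255), HIF-1α replicate 2 (1.16, adjusted p = 0.0278) or HIF-1α replicate 3 (1.18, adjusted p = 0.0176). The call against R30E was lost without R30E replicate 1 (1.16, adjusted p = 0.0554), R30E replicate 2 (1.25, adjusted p = 0.0271), HIF-1α replicate 2 (1.26, adjusted p = 0.0272) or HIF-1α replicate 3 (1.28, adjusted p = 0.0156). With HIF-2α the change was 0.76 ± 0.282 against WT (adjusted p = 0.0773), 0.52 against R27E (adjusted p = 0.316) and 0.86 against HIF-2αDM (adjusted p = 0.0570). All of these values come from the fit without a block. In the model blocked on replicate number, given below, KDM4B passed for HIF-1α and for HIF-2α against WT. It also passed there for each over its own dimerization mutant, but not for HIF-2α over R27E.

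In the fit without a block, KDM6B and KDM5B followed below the threshold. Both passed with HIF-1α against WT in the model blocked on replicate number, given below. KDM6B stood at 21.1, 29.3 and 34.4 CPM in WT, at 42.5, 57.2 and 51.0 with HIF-1α and at 49.0, 45.2 and 68.6 with HIF-2α, again without overlap. Its changes of 0.83 ± 0.262 and 0.94 ± 0.263 did not pass (adjusted p = 0.0495 and 0.0154), nor did 0.99 ± 0.263 for HIF-2α against HIF-2αDM (adjusted p = 0.0141). Both HIF-2α comparisons passed without R27E replicate 3 (adjusted p = 0.00553 and 0.00471) or HIF-1β KIN replicate 3 (adjusted p = 0.00994 and 0.00895), libraries of neither group that enter the shared estimate of spread. Against R27E it was 0.73 ± 0.262 (adjusted p = 0.0930) and 1.1 without R27E replicate 3 (adjusted p = 0.00710), a library at 47.8 CPM beside 25.9 and 24.7 in the other two. KDM5B was at 14.6, 13.4 and 13.5 CPM in WT, at 25.6, 21.7 and 18.5 with HIF-1α (0.67 ± 0.188, adjusted p = 0.0237) and at 16.4, 12.5 and 11.1 with HIF-2α. With HIF-1α R30E, KDM5B spread over 12.7, 22.1 and 17.6 CPM and overlapped the HIF-1α line.

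The libraries numbered 3 of batch 1 were the most deeply sequenced, with a median of 78509555 counts against 61601381 and 59888978 for numbers 1 and 2. KDM4B, KDM6B and KDM2B were highest in number 3 in 8 of the 9 groups each and KDM2A in 6, whereas KDM4C was lowest there in 7, KDM4A and KDM5B in 6 each and KDM3B in 5. Same-numbered libraries moved together in this batch, and the part of depth in these levels was not tested. In the blocked edgeR model, KDM4B (1.25, adjusted p = 3.23e-07), KDM3A (adjusted p = 1.89e-05), KDM6B (0.86, adjusted p = 0.000238) and KDM5B (0.66, adjusted p = 0.00557) passed with HIF-1α against WT, where 5.86% of all genes then passed upward in place of 3.75%. KDM6B (0.94, adjusted p = 4.22e-05) and KDM4B (0.76, adjusted p = 0.000375) passed with HIF-2α against WT, where 7.79% of genes passed upward in place of 4.99%. Against the inactive mutants the block added KDM2B, KDM4C and KDM6B for HIF-1α over R30E (adjusted p = 0.000329, 0.00131 and 0.00135, with 2.84% of genes passing upward), and KDM4B, KDM2B, KDM4C and KDM5B for HIF-1α over HIF-1αDM (adjusted p = 2.62e-06, 0.00436, 0.00337 and 0.00927, with 2.35% of genes). It also added KDM6B for HIF-2α over R27E (adjusted p = 0.00100, 4.85% of genes), and KDM6B and KDM4B for HIF-2α over HIF-2αDM (adjusted p = 4.06e-05 and 0.000158, 5.42% of genes). KDM4C also passed for HIF-1α over R30E without the block when HIF-1α replicate 3 was left out (0.85, adjusted p = 0.00784).

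**Figure D4:**
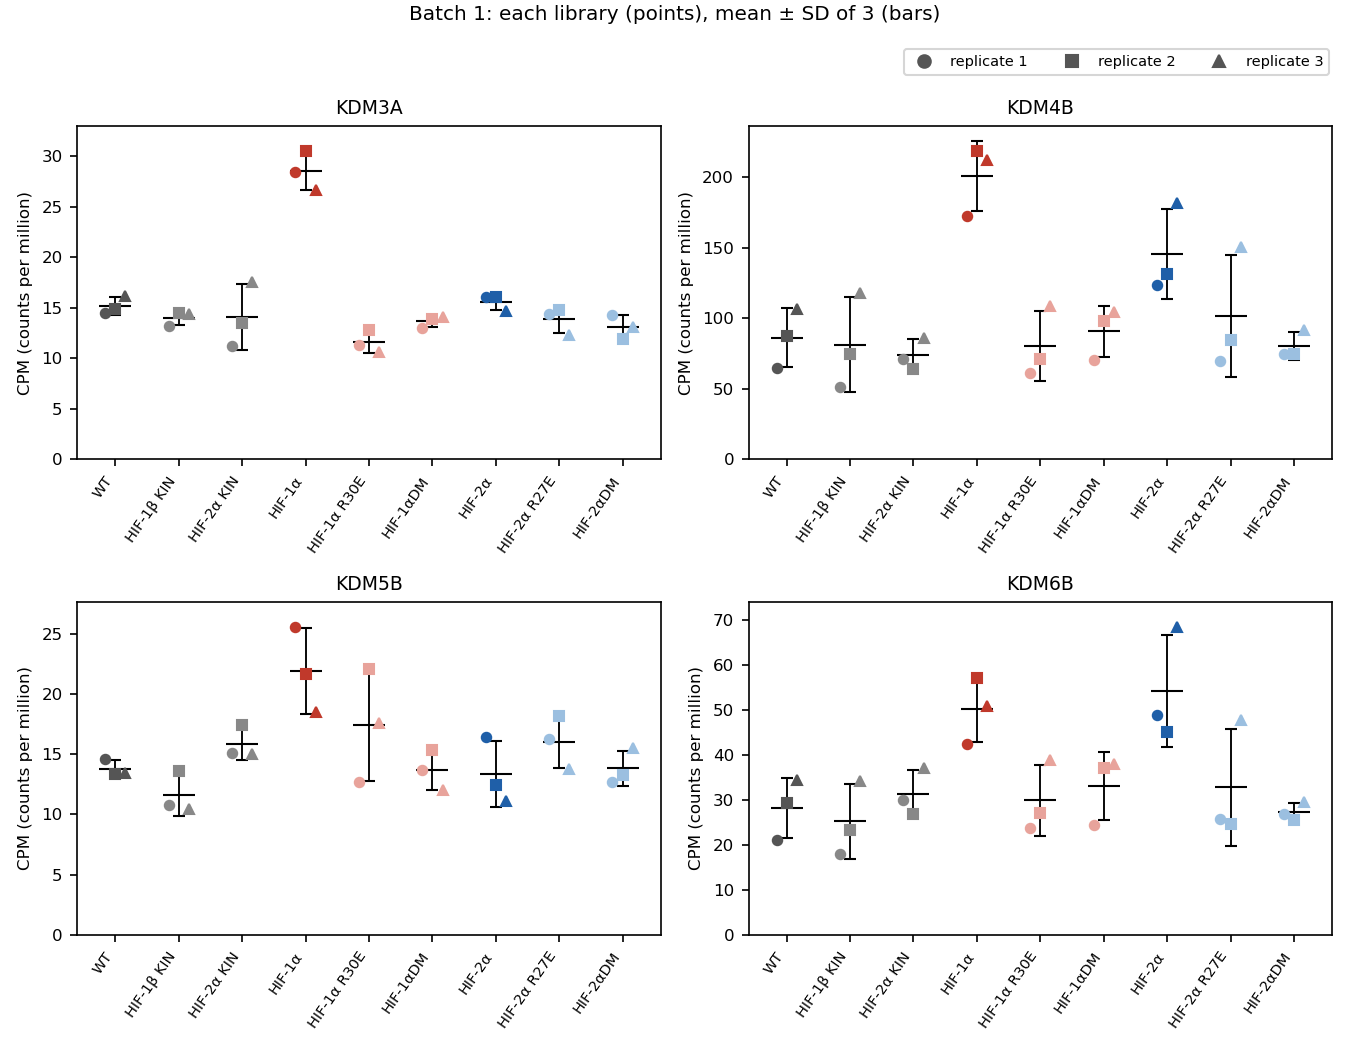
CPM (y axis from 0) of KDM3A, KDM4B, KDM5B and KDM6B in the 3 libraries of each group of batch 1 (x axis), with circles, squares and triangles for replicates 1, 2 and 3 and bars for the mean ± SD. KDM3A is at 26.7 to 30.5 CPM with HIF-1α and at most 17.6 CPM in any other group, and the triangles are the highest points of KDM4B and KDM6B in 8 of 9 groups.

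Without the block, 2 members passed upward with HIF-1α in batch 1 (3.75% of 23410 genes), of which KDM4B was called (3.27% of genes higher), and 0 downward (1.04%). With HIF-2α, 0 passed by edgeR (4.99% of genes passed upward and 3.00% downward), 2 were higher at an unadjusted p under 0.05 and 1 passed with DESeq2. With the 4 mutants 0 passed by edgeR or DESeq2, and 1 was lower at an unadjusted p under 0.05 with R30E and 1 with HIF-2αDM. Over all genes, 2.39% passed upward and 0.94% downward with R30E, 0.466% and 0.00854% with HIF-1αDM, 0.474% and 0.047% with R27E, and 0.47% and 0.0342% with HIF-2αDM. The medians over the 10 members were 0.41 with HIF-1α, 0.03 with HIF-2α, -0.27 with R30E, -0.18 with HIF-1αDM, 0.02 with R27E and -0.21 with HIF-2αDM, where the medians over all genes lay between -0.09 and 0.00. Against their own mutants, 2 members were called for HIF-1α over R30E (1.42% of genes higher), 1 for HIF-1α over HIF-1αDM (1.21%) and 0 for HIF-2α over R27E or HIF-2αDM (2.09% and 2.48%), where 1 and 3 members were higher at an unadjusted p under 0.05 and 0 and 1 were called with DESeq2. All 10 log2 differences of HIF-1α over either mutant were positive, from 0.04 to 1.32, with medians of 0.51 and 0.59 beside 0.02 and 0.00 over all genes. These comparisons share the HIF-1α libraries. The functional lines also held more RNA of the other HIF-α gene than their mutants, as given above, and its part in these differences was not tested.

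In the KIN clones, whose tagged proteins come from the endogenous genes, none of the 10 members passed by edgeR or DESeq2, and 1 and 2 were lower at an unadjusted p under 0.05. Over all genes, 0.615% passed upward and 1.16% downward in HIF-1β KIN, and 3.23% and 2.66% in the other clone. The largest differences were -0.53 ± 0.191 for KDM4A in HIF-1β KIN (12.1, 18.4 and 16.9 CPM against 23.2, 23.3 and 22.0 in WT, adjusted p = 0.172) and -0.53 ± 0.164 for KDM5A in HIF-2α KIN (10.2, 15.0 and 13.4 CPM against 18.8, 17.6 and 19.3, adjusted p = 0.0357). In both cases every KIN library lay below every WT library. KDM3A was at 13.2, 14.5 and 14.3 CPM in HIF-1β KIN and at 11.2, 13.5 and 17.6 in HIF-2α KIN, overlapping WT. EPAS1 itself was lower in HIF-2α KIN than in WT, at 92.0 ± 7.41 CPM (log2 change -1.23, adjusted p = 0.000101). KDM6B lies on chromosome 17, whose 794 genes above the same floor had a median log2 change of 0.42 in HIF-2α KIN and 0.25 in HIF-1β KIN, beside -0.07 and 0.00 over all such genes, while KDM6B was at 0.15 and -0.17. The genes of chromosome 12 had a median of -0.21 in HIF-1β KIN, where KDM2B was at -0.22 and KDM5A at -0.30, and of -0.04 in HIF-2α KIN, where KDM2B was at 0.14 and KDM5A at -0.53.

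Both batches measured WT, HIF-1α and HIF-2α cells, with separate WT libraries. In a joint model of these 18 libraries, 0 of the 10 members passed for a difference between batches in their change against WT by edgeR or DESeq2 (0.00374% of 26763 genes did by edgeR for HIF-1α and 0 did for HIF-2α). At an unadjusted p under 0.05 there were 0 and 1 members. With the replicate block 0 members passed for either line by edgeR, where 0.116% of genes passed for HIF-1α and 3.17% for HIF-2α. Because the fit without the block passed almost no gene, 0 members there does not show that the changes were equal. The differences, batch 2 minus batch 1, ran from -0.30 (KDM6B, 95% interval -0.77 to 0.17) to -0.04 (KDM3A, -0.31 to 0.24) for HIF-1α, and from -0.37 (KDM5A, -0.68 to -0.07) to 0.13 (KDM3A, -0.15 to 0.40) for HIF-2α. The medians over all genes were -0.10 and -0.05 on this scale. With RLE size factors the all-gene medians were -0.006 and 0.03, and the members ran from -0.21 (KDM6B) to 0.06 (KDM3A) for HIF-1α and from -0.295 (KDM5A) to 0.21 (KDM3A) for HIF-2α, so that the sign of KDM3A for HIF-1α depended on the scaling. Batch 1 had the wider errors, with a standard error of 0.284 for KDM4B with HIF-1α against 0.0593 in batch 2.

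**Figure D5:**
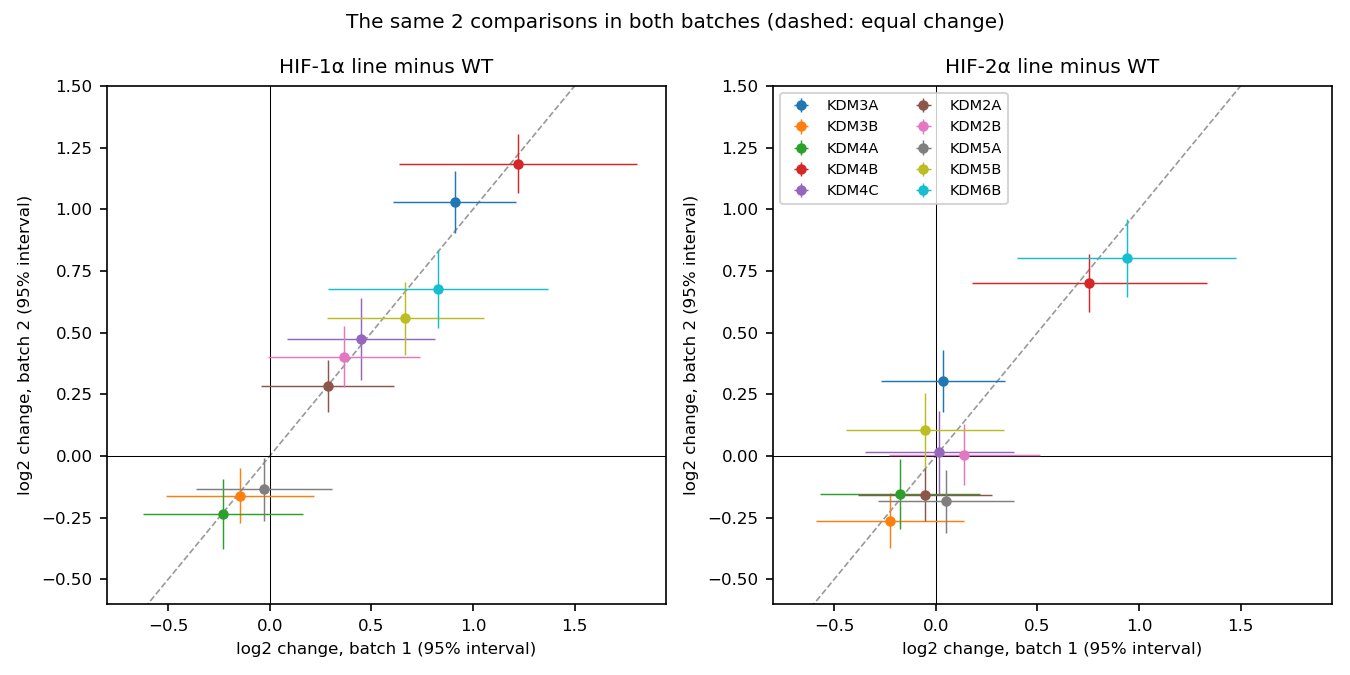
Log2 change against WT in batch 1 (x axis) and in batch 2 (y axis) for the HIF-1α line (left) and the HIF-2α line (right), 1 point per member with 95% intervals and a dashed line of equal change. With HIF-1α the points run from KDM4A (-0.23 in both batches) to KDM4B (1.22 and 1.18), and with HIF-2α KDM6B (0.94 and 0.80) and KDM4B (0.76 and 0.70) stand above the other 8.

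Further JmjC-domain proteins, other demethylases and histone methyltransferases gave few calls. Over all genes tested in batch 2, 9.31% passed upward and 7.87% downward with HIF-1α, and 13.4% and 14.0% with HIF-2α. Of 17 further JmjC-domain proteins, 0 passed upward and 4 downward with HIF-1α in batch 2 and 2 upward and 5 downward with HIF-2α, with medians of -0.04 and -0.02. HSPBAP1, a JmjC protein without an established histone substrate, was called lower with HIF-2α in batch 2 (2.93 ± 0.0437 CPM in WT and 1.30 ± 0.185 with HIF-2α, log2 change -1.17, adjusted p = 9.42e-07) and in batch 1 (1.64 ± 0.250 and 0.677 ± 0.228 CPM, -1.26, adjusted p = 0.00536). KDM7A was called lower in HIF-2α KIN (3.63 ± 1.11 CPM in WT and 1.35 ± 0.340, -1.43, adjusted p = 0.00307). Of 8 demethylases of other classes, 2 passed upward and 3 downward with HIF-1α in batch 2 and 1 upward and 4 downward with HIF-2α, with medians of -0.07 and -0.345. Among them KDM1B, a flavin-dependent H3K4 demethylase that needs no 2-oxoglutarate, was called lower with HIF-2α in batch 2 (60.3 ± 0.958 CPM in WT and 29.9 ± 1.87, -1.01, adjusted p = 1.29e-16). TET1, which oxidises methylcytosine in DNA, was called higher with HIF-1α (0.567 ± 0.234 and 1.32 ± 0.152 CPM, 1.22, adjusted p = 0.00126). Of 19 histone methyltransferases, 4 passed downward and 0 upward with HIF-1α in batch 2, and 6 downward and 1 upward with HIF-2α, with medians of -0.14 and -0.12. Among them, and named after its values were seen, EZH2, the H3K27 methyltransferase that KDM6B opposes, changed by -0.36 and -0.32 (adjusted p = 2.95e-07 and 1.69e-06).

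Across the 12 lines, KDM4B and KDM3A covered the widest range of log2 change against WT, 1.45 and 1.42, followed by KDM5B with 1.15 and KDM6B with 1.11, and KDM3B the narrowest with 0.36. Among 12462 genes averaging 50 or more normalized counts in both batches, the patterns most like that of KDM3A over these 12 values belonged to SH3D21 (Pearson's r = 0.982), the glycolytic enzyme TPI1 (0.973), PPFIA4 (0.964), TPI1P1 (0.962) and PPP1R16A (0.959). TPI1P1 is a pseudogene of TPI1 and may share its reads. Those most like KDM4B belonged to SPAG4 (0.968), the collagen prolyl hydroxylase subunit P4HA1 (0.9649), RIT1 (0.963), the adenylate kinase AK4 (0.957) and C4orf3 (0.954). The 12 values share the WT libraries of their batch, so the correlations are a description of likeness over these lines. In the 4 batch 2 lines, taken in the order used above, TPI1 changed by 0.94, 0.88, 0.41 and 0.44 on the log2 scale and P4HA1 by 1.52, 1.51, 1.18 and 0.78.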

How the data were processed

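Poly-A RNA-seq libraries of 786-O cells (42, in 2 batches) were analysed from gene counts deposited by the authors. The authors aligned reads to hg38 with STAR, kept unique alignments and counted reads per gene with HTSeq; the submitters' notes give STAR 2.7 and HTSeq 0.11.1, and the methods name earlier releases and an older GENCODE annotation. The deposited counts are raw, with no normalization, and total 42377599 to 109642159 per library. Spike-in RNA added in batch 1 was not used here. Batch 1 RNA was extracted with RNeasy columns and batch 2 RNA with TRIzol, with different library kits, so batches were normalized and tested separately. HTSeq ignored strand, which with unique alignment limits paralogs, pseudogenes and overlapping genes.

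Genes averaging 0.5 or more normalized counts were tested (23410 in batch 1, 28724 in batch 2, 26763 jointly) with edgeR 4.0.16 (quasi-likelihood test, TMM, R 4.3.3), with no block and with all groups of a batch in 1 fit. The test was checked on simulated counts for HIF-1α against WT in the batch 2 design only, with libraries drawn independently. The batch 1 and joint fits were not simulated. The call was an adjusted p of at most 0.01 and at least 2-fold. CPM used TMM library sizes, and RPKM the exon union of GENCODE 44. 95% intervals used the model's degrees of freedom. Alternatives were DESeq2 1.42.0, RLE size factors, no filter, only the groups compared, a replicate block, and leaving out each library.

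In batch 1 the replicate numbers pair libraries: deviations from the group means correlated with those of the same-numbered WT library at over 0.1 in 24 of 24 pairs (mean 0.515). The mean for other numbers, -0.24, largely follows from this, because deviations within a group cancel. Replicates differed by more than sampling noise in all 42 pairs. The members and gene lists were chosen with earlier results of these data known. All 10 members are named. Other genes are named when called against WT at an average of 50 or more normalized counts without overlap of libraries, at most the 3 with the largest change per list and batch, and 5 by likeness of pattern to each of KDM3A and KDM4B. EZH2 is outside this rule and was named after its values were seen.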

Additional observations from a re-analysis of the deposited data

Results flagged for a closer look

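In batch 2, the difference between lines with the HIF-2α IDR and lines with the HIF-1α IDR was not the same on both structured parts. This held for 3 members, by the interaction term of the edgeR model, which 3.01% of all genes passed upward and 2.36% downward. The interaction was 0.76 on the log2 scale for KDM5B, 0.53 for KDM4C and 0.37 for KDM4B. Those of KDM4C and KDM4B no longer passed without 1 library each (adjusted p = 0.0118 and 0.0101). Each construct is 1 line, so a difference due to a protein part and a difference between lines cannot be told apart. In each case the line with the HIF-2α IDR was lower by more on the HIF-1α structured part than on that of HIF-2α. On the HIF-1α structured part, KDM5B ended at 22.1 to 25.7 CPM, below the 33.2 to 35.8 CPM of WT, and KDM4C ended at 11.4 to 13.4 CPM, overlapping the WT libraries at 13.0 to 14.0 CPM, while KDM4B stayed above WT in both lines with the HIF-2α IDR.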

How the results depend on the processing

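For the 10 members in the batch 1 lines against WT, 1 change was called, beside 2 with DESeq2 and 3 without the libraries numbered 3, an alternative chosen after seeing the data. At any fold 2 passed, beside 4 with DESeq2, 5 with no filter, 6 with the replicate block and 5 without the libraries numbered 3. For functional HIF-α against its mutant, 3 were called, beside 5 with DESeq2, 5 with no filter and 5 in fits of only the groups compared. At any fold 3 passed, beside 9, 8, 6, 13 with the replicate block and 8 without the libraries numbered 3. Over all genes and the same comparisons, 2.38% were called against WT and 2.68% against the mutants. At any fold the all-gene share rose with the block too, from 3.16% to 5.85% against WT and from 3.55% to 6.77% against the mutants. For HIF-2α against HIF-1α in batch 1, 1 passed (3.07% of all genes), beside 2 with DESeq2 and 2 with the block (5.87%). Leaving out 1 library gave 0 to 1 called and 1 to 3 passing in batch 1 against WT, 2 to 5 and 2 to 6 against the mutants, 0 and 1 for HIF-2α against HIF-1α, 3 and 21 to 25 (3 and 22 with all libraries) in batch 2 against WT, 0 and 17 to 19 (0 and 19) for the domain contrasts, and 0 and 0 between batches. No change that passed with all libraries reversed under these alternatives, and in fits without 1 library 756 values kept the threshold and 21 lost it. In batch 2 only 5 of 12 same-numbered pairs correlated above 0.1 (mean 0.064), so any pairing by number was weak there. With the replicate block 25 changes passed against WT in place of 22, where the share over all genes and these 4 lines was 24.7% in place of 22.2%. In batch 1 the block changed no call at 2-fold other than KDM4B for HIF-1α over HIF-1αDM, and the changes it brought past the adjusted p alone are given beside their results. With 3 libraries a group, standard errors of 0.147 to 0.285 in batch 1 limit what can be seen.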
